A study of Mus musculus with 112 samples.

Results

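The 30 genes described here carry out or govern cholesterol handling, and they were taken by symbol from the 32285 genes of a bulk RNA-seq count table of mouse crypt cells. By role, 18 encode enzymes of cholesterol synthesis, 6 encode proteins that control the pathway, and 6 encode proteins of sterol transport and storage. All 30 had counts. Crypts of the proximal small intestine came from C57BL/6 mice that all carried the Lgr5-eGFP-IRES-CreERT2 allele, in which eGFP and an inducible Cre are expressed from the stem cell gene Lgr5. Mice were aged (23 to 27 months) or young (2 or 3 months), of both sexes. Paneth cells, the granule-bearing niche cells of the crypt floor, were sorted from EPCAM-high cells by high CD24 and side scatter without GFP (12 aged and 12 young animals). Progenitor cells, the dividing daughters of stem cells, were EPCAM-high cells of medium or low GFP (10 aged and 10 young). Intestinal stem cells (ISCs) were EPCAM-high cells of high GFP (12 aged and 11 young).

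Cholesterol is built from acetyl-CoA, through mevalonate and squalene to lanosterol, which further enzymes trim to cholesterol. When membrane sterol falls, the escort protein Scap carries the SREBP transcription factors (Srebf1 and Srebf2) to the Golgi for activation, while Insig1 and Insig2 hold the complex back when sterol is plentiful. Nr1h3 (LXR alpha) senses oxysterols and induces sterol export. In the small intestine Npc1l1 takes up cholesterol from the lumen, Abcg5 and Abcg8 pump it back, Soat2 esterifies it for storage, and these genes are best known from absorptive enterocytes.

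SREBP works with the factors NF-Y and Sp1 at nearby promoter sites. Some promoters are therefore printed for reading beside the values below. They are those of the synthesis genes Hmgcs1, Msmo1, Lss and Cyp51, all called below, and of the transport gene Npc1l1. The windows run from 250 bases before to 50 bases after the transcript start (RefSeq, build GRCm38.p6), 5′ to 3′ on the strand of the gene. Capitals mark matches, on either strand, to the sterol response element core TCACNCCAC, the NF-Y motif CCAAT and the Sp1 motif GGGCGG. The windows lie at chr13:119690101-119690400 on the plus strand for Hmgcs1, chr8:64733529-64733828 on the minus strand for Msmo1, chr10:76531355-76531654 on the plus strand for Lss, chr5:4104648-4104947 on the minus strand for Cyp51, and chr11:6230196-6230495 on the minus strand for Npc1l1.
Hmgcs1: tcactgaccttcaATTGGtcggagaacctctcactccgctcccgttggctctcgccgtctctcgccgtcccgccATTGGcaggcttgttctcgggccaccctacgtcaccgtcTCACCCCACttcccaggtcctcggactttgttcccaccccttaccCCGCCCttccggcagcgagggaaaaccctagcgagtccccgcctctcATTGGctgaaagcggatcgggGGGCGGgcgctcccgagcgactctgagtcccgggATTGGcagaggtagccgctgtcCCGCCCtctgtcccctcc
Msmo1: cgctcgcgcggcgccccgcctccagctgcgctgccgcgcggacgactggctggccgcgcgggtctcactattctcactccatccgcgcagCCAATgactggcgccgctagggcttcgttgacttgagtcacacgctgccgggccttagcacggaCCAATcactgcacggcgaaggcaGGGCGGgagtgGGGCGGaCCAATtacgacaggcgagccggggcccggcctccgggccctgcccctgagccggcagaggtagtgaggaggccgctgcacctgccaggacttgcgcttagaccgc
Lss: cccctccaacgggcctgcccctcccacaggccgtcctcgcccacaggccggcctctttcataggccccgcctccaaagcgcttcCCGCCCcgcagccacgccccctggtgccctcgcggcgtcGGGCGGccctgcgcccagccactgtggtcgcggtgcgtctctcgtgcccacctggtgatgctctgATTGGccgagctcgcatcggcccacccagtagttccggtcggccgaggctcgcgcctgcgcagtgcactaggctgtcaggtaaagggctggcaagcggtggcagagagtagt
Cyp51: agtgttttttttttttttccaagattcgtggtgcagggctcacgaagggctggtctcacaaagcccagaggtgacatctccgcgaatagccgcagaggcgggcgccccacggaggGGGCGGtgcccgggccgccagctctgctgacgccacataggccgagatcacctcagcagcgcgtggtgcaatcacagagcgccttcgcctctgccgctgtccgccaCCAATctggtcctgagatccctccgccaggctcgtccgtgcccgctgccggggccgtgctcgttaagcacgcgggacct
Npc1l1: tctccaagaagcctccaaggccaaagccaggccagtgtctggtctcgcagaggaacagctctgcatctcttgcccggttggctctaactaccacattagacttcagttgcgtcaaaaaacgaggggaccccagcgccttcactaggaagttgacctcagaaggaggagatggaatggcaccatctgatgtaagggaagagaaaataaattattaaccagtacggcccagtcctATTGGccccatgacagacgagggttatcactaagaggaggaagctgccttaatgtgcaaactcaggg
Windows were found for 25 of the 30 genes, 35 windows in all, since 7 genes have more than 1 start. None was found for Fdps, Fdft1, Sqle, Stard4 and Soat2, so the shares that follow do not cover these genes. The sterol response element core was present in 1 of the 35, that of Hmgcs1 (2.86%), against 1.24% of all 32851 windows. CCAAT was present in 22 of the 35 windows (62.9%), against 37.4% of all windows, and in 14 of 18 windows of synthesis genes. GGGCGG was present in 24 of the 35 windows (68.6%), against 35.7% of all windows. Counted by gene, 21 of the 25 members hold CCAAT in at least 1 window, against 41.1% of all 27025 genes, and 20 hold GGGCGG, against 38.2%. These shares of all windows and genes were not limited to genes expressed in crypt cells, and the part of expression in them was not tested. Among the printed windows Hmgcs1 holds 4 CCAAT and 3 GGGCGG, and Msmo1 3 and 2. Lss holds 1 and 2, Cyp51 1 and 1, and Npc1l1 1 and 0. The window of Sc5d, which is not printed, holds 1 and 4. A match describes these letters only and is no evidence of binding.

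Reads were counted at the 3′ ends of transcripts, so levels are compared between samples and not between genes. Levels are counts relative to library totals (CPM) scaled by trimmed mean of M values (TMM) factors, called normalised CPM. Total counts per sample ran from 2823489 to 11821614 in Paneth samples, 2476086 to 7569896 in progenitors and 2176833 to 5586711 in ISCs. Mitochondrial genes took 31.4 to 73.4% of counts in Paneth samples, and at most 7.05% in progenitors and 9.69% in ISCs. Median Lgr5 was 28.1 and 39.4 normalised CPM in aged and young Paneth samples, 3.18 and 4.09 in aged and young progenitors, and 91.6 and 115 in aged and young ISCs, so ISCs were highest, but the Paneth samples, sorted without GFP, were above the progenitors, which goes against the order of the GFP gates (log2 3.01 aged and 3.41 young, edgeR adjusted p = 1.58e-06 and 3.50e-13). All 10 ISC markers were likewise called higher in Paneth samples than in progenitors, with a median log2 of 1.66 aged and 1.40 young, and their part in the differences between these gates was not tested. Median Lyz1 of Paneth cells was 81890 and 57690 in aged and young Paneth samples, against at most 410.2 in any other group. Progenitor samples also carried goblet cell markers (7 genes, median sum 19330 aged and 20000 young, against 723 and 647 in aged and young ISCs) and enterocyte markers (10 genes, 1895 and 1676, against 671 and 649). Paneth samples carried both as well (goblet 6873 aged and 6027 young, enterocyte 2046 and 2108), along with tuft markers (7 genes, median sum 349 aged and 415 young, against group medians of at most 8.46 in progenitors and ISCs) and immune markers (8 genes, 82.1 and 69.0, against at most 1.83), with the pan-leukocyte gene Ptprc at a median of 0.234 aged and 0.229 young. In 1 aged ISC sample the immune markers summed to 278. Enteroendocrine markers (8 genes) summed to 2182 and 1359 in aged and young Paneth samples, 503 and 225 in progenitors and 18.4 and 6.92 in ISCs. The part of these cells in the differences between gates was not tested, and in bulk samples fewer cells of a type and less RNA per cell cannot be told apart. Proliferation genes had median sums of 1522 and 1730 in aged and young progenitors, below the 2172 and 2224 of ISCs. In Paneth samples the sums were 1050 and 1159, and the part of proliferation in the differences between gates was not tested.

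Cholesterol genes were higher in progenitors than in ISCs at both ages. With edgeR's quasi-likelihood test and Benjamini-Hochberg adjustment over all genes tested, 19 of 29 tested members were called at an adjusted p below 0.05 in aged mice and 18 in young mice, and every one of these calls was higher in progenitors. Over all genes 14% were called higher and 10.5% lower in aged mice, and 13.1% and 11.2% in young mice. The median member stood at log2 0.75 in aged and 0.76 in young mice, against -0.03 and -0.06 for all genes tested. Called in both ages were 16 members, 10.9% of all genes being called higher in both. Of the 17 tested synthesis enzymes, 13 rose in aged and 12 in young progenitors, spread from the first steps (Hmgcs1, Mvk, Mvd) through the isoprenoid and squalene steps (Fdps, Fdft1, Sqle) to the sterol ring (Lss, Cyp51, Msmo1, Ebp, Sc5d, Dhcr7).

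Msmo1, which oxidises the methyl groups of the sterol ring, had 47.0, 94.95 and 118 normalised CPM (lowest, median and highest) in young progenitors, against 20.1, 24.98 and 56.8 in young ISCs. All but 1 of the 10 progenitor samples lay above the highest ISC sample. Its log2 fold change was 1.36 ± 0.21 (SE) in aged mice and 1.53 ± 0.25 in young mice (edgeR adjusted p = 2.66e-06 and 4.94e-06). Lss, which closes squalene epoxide into lanosterol, had 29.0, 42.2 and 54.2 in young progenitors, against 8.45, 13.9 and 23.6 in young ISCs, with no overlap. It rose by log2 1.46 ± 0.31 in aged and 1.41 ± 0.25 in young progenitors (edgeR adjusted p = 0.000263 and 1.58e-05), and in aged mice 6 of 10 progenitor samples lay above the highest ISC sample.

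Cyp51, the lanosterol demethylase, had 44.9, 78.5 and 112 in young progenitors, against 21.8, 26.8 and 41.8 in young ISCs, again with no overlap. Its log2 fold change was 1.49 ± 0.21 in aged and 1.34 ± 0.20 in young mice (edgeR adjusted p = 2.08e-07 and 7.01e-07). Sc5d, a sterol desaturase of the last steps, had 23.6, 29.3 and 42.1 in young progenitors, against 8.12, 12.2 and 16.9 in young ISCs. These did not overlap either, and it rose by log2 1.09 ± 0.30 in aged and 1.35 ± 0.25 in young progenitors (edgeR adjusted p = 0.0044 and 3.56e-05). For Fdps, the farnesyl diphosphate synthase, every progenitor sample of either age (74.1 to 144) lay above every ISC sample (30.1 to 69.8), and Npc1l1 was the only other member of which this held, against 2.39% of all genes. Reads of Cyp51 could not be separated with certainty from those of Akap9, which overlaps its 3′ end on the opposite strand, nor those of Fdps from the overlapping Gm43738 or those of Fdft1 from Ctsb.

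The remaining synthesis calls ran from log2 0.69 (Nsdhl) to 1.39 (Hmgcs1) in aged and from 0.71 (Dhcr7) to 1.17 (Hmgcs1) in young mice. The enzymes called at neither age were Pmvk (0.43 aged and 0.33 young), Acat2 (0.52 and 0.42), Hsd17b7 (0.20 and -0.05) and Tm7sf2 (-0.24 and -0.04). Nsdhl, a dehydrogenase acting with Msmo1, was called in aged mice only (edgeR adjusted p = 0.0298 aged and 0.0957 young), and its fold in young mice was similar, log2 0.61. Idi1, the isopentenyl diphosphate isomerase, had at most 1.66 normalised CPM in any sample and was tested in no comparison.

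**Figure D1:**
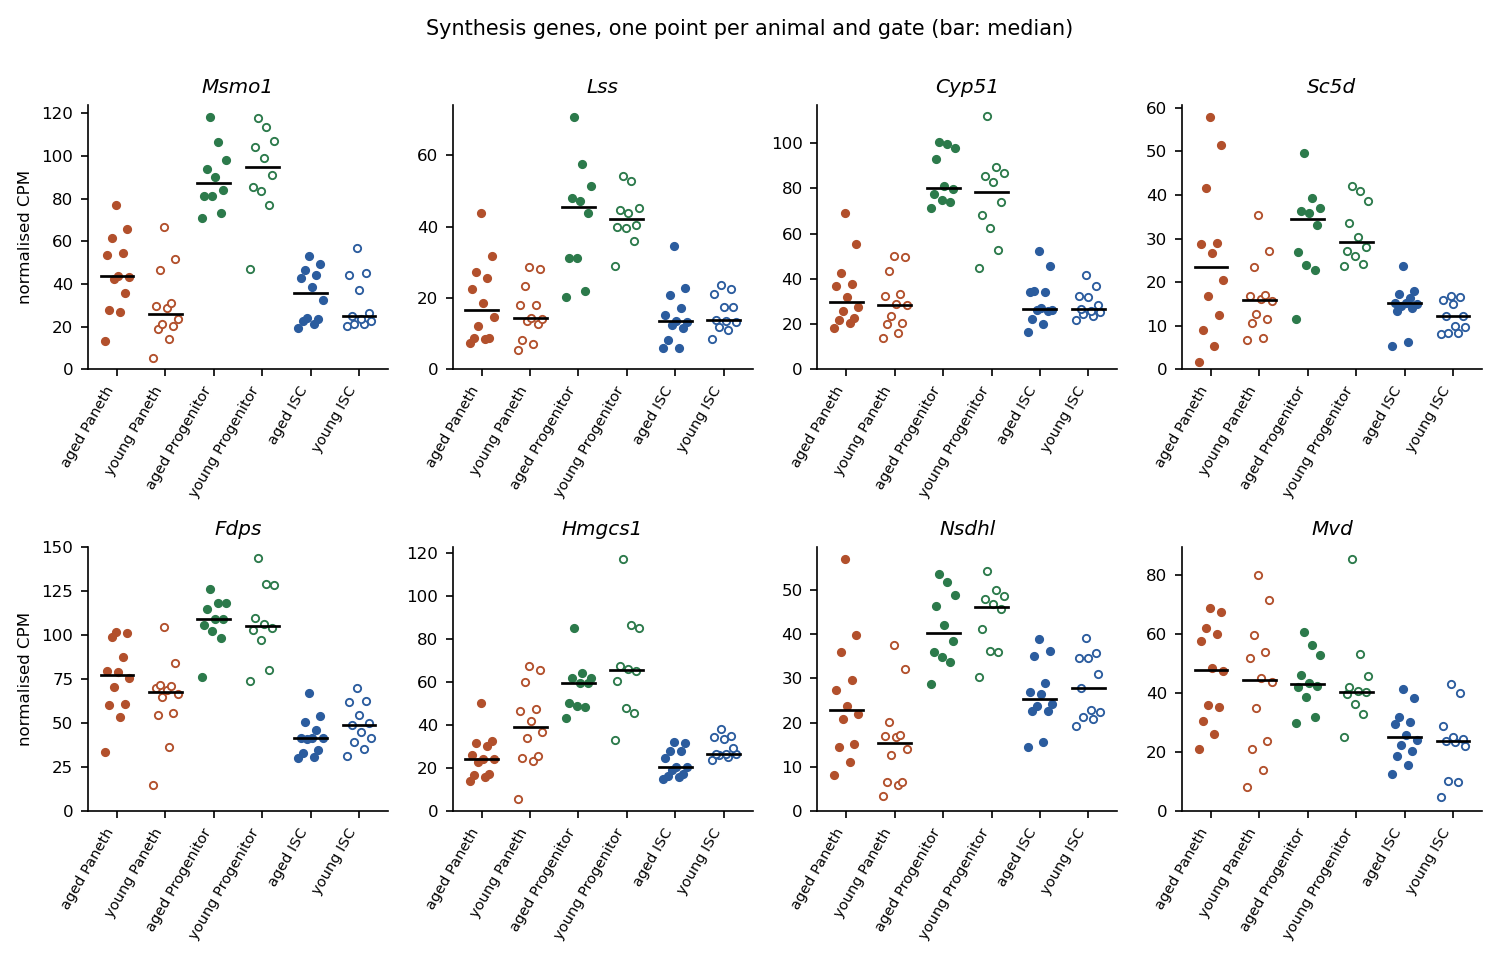
Normalised CPM (linear axis from 0) of 8 synthesis genes in aged and young Paneth, progenitor and ISC samples, 1 point per animal and gate, with the median as a bar. The progenitor medians of Msmo1, Lss, Cyp51, Sc5d, Fdps and Hmgcs1 lie above the Paneth and ISC medians at both ages, whereas Mvd has medians of 48.0 aged and 44.5 young in Paneth samples and 43.0 and 40.6 in progenitors.

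Among the controllers, neither SREBP gene nor Scap was called. Srebf2, the SREBP that acts mainly on cholesterol genes, had log2 fold changes of 0.22 (95% interval -0.12 to 0.55) in aged and 0.29 (-0.08 to 0.65) in young progenitors over ISCs. Srebf1 stood at -0.22 at both ages and Scap at -0.08 aged and 0.02 young, with a lowest edgeR adjusted p of 0.268 for the 3 genes. The 95% intervals of all 3 leave out a doubling and a halving. Srebf1 shares its 3′ end with exons of Rai1 on the opposite strand.

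The genes of the sterol-sensing retention proteins were higher in young progenitors. Insig1, itself an SREBP target, had 4.43, 5.49 and 14.2 normalised CPM in young progenitors, against 1.499, 2.39 and 3.35 in young ISCs, with no overlap (log2 1.47 ± 0.52, edgeR adjusted p = 0.0342). In aged mice its fold was 1.16 ± 0.54 and was not called (edgeR adjusted p = 0.117), with 2 of 10 progenitor samples above the highest ISC sample. Insig2 was likewise called in young mice alone (log2 0.30 aged and 0.85 young, edgeR adjusted p = 0.523 and 0.0363). Nr1h3 was called in aged mice alone (0.54 aged and 0.23 young, edgeR adjusted p = 0.0309 and 0.548). None of these 3 genes was called in the test of a different age effect between progenitors and ISCs described below.

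The largest difference of all members was that of Npc1l1. It had 38.3, 124 and 164 normalised CPM in aged progenitors, against 14.8, 26.4 and 37.9 in aged ISCs, and 66.2, 94.9 and 145 in young progenitors, against 13.8, 19.2 and 33.3 in young ISCs. No sample overlapped at either age. The log2 fold change was 2.09 ± 0.20 in aged and 2.18 ± 0.18 in young mice (edgeR adjusted p = 1.99e-11 and 5.10e-13), or 4.26-fold and 4.52-fold. Soat2 (log2 0.75 aged and 1.06 young), Abcg5 (1.11 and 0.63) and Stard4, a cytosolic sterol carrier (0.51 and 0.66), were called at both ages, and Abcg8 in aged mice alone (0.92 and 0.55, edgeR adjusted p = 0.0141 and 0.116). Abca1, the cholesterol exporter to lipoproteins, stood at a median of 1.06 normalised CPM or less in every group and was not called. Npc1l1, Soat2, Abcg5 and Abcg8 are also expressed by enterocytes. Enterocyte markers were higher in progenitors than in ISCs as given above, and their part in these differences was not tested.

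These groups share animals, since 10 animals gave both progenitors and ISCs. With the animal as a block, 16 members stayed called in aged mice, where Mvk, Nr1h3 and Stard4 were lost (log2 0.82, 0.48 and 0.46, edgeR adjusted p = 0.1735, 0.276 and 0.214). Stard4 was then called in young mice alone and Nr1h3 at neither age. In young mice 11 stayed called, and Mvk, Fdft1, Sqle, Dhcr7, Insig1, Insig2 and Abcg5 were lost (log2 0.83, 0.48, 0.42, 0.70, 0.84, 0.89 and 0.42, edgeR adjusted p from 0.0753 to 0.529). Of these folds, those of Dhcr7 and Insig2 lay within the range of the fits without a block that left out 1 sample. The others lay below that range, which for Sqle began at 1.04. With the animal as a random effect in limma-voom, 21 members were called in aged and 20 in young mice. Of all genes the block called 1798 in aged and 1617 in young mice, and the random effect 4026 and 4200. By edgeR without the block, 1743 genes were higher and 1308 lower in aged mice, and 1621 and 1385 in young mice.

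**Figure D2:**
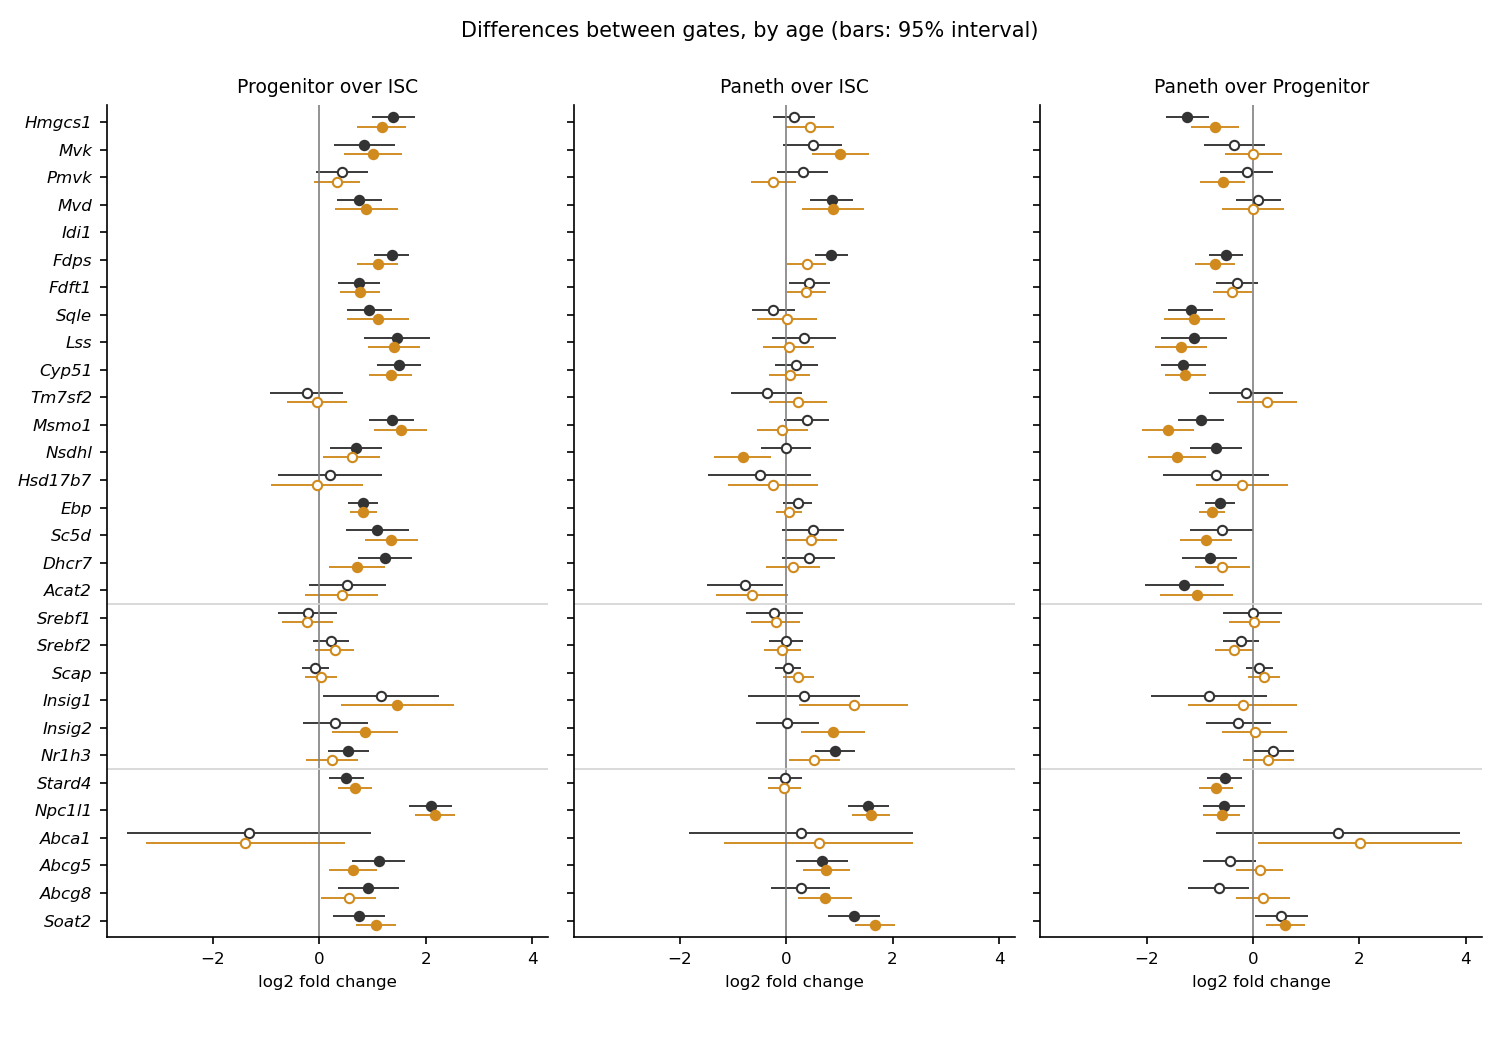
Log2 fold changes with 95% intervals for progenitors over ISCs, Paneth cells over ISCs and Paneth cells over progenitors, in aged (grey) and young (orange) mice; filled points have an adjusted p below 0.05, and horizontal lines part synthesis, control and transport genes. In the left panel every filled point lies right of 0, and in the right panel the filled points lie left of 0 apart from Soat2 in young mice.

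Between Paneth cells and ISCs 6 of 29 members were higher in aged mice (16.9% of all genes were) and 7 in young mice (17.6%). In young mice 1 member was lower (12.8% of all genes), and in aged mice none was (11.7%). The shares called higher are near those of all genes. Npc1l1, Soat2, Abcg5 and Mvd were higher at both ages (4 of 29 members, against 12.7% of all genes). Of the 6 transport genes, 3 were higher in aged and 4 in young mice, and of the 17 synthesis genes 2 were higher at each age. Soat2 had 24.3, 66.6 and 97.2 normalised CPM in young Paneth samples, against 15.6, 18.6 and 30.6 in young ISCs, with 11 of 12 Paneth samples above the highest ISC sample (log2 1.28 ± 0.24 aged and 1.67 ± 0.19 young, edgeR adjusted p = 4.22e-05 and 6.30e-10). Npc1l1 had 32.6, 66.1 and 87.7 in young Paneth samples, against 13.8, 19.2 and 33.3 in young ISCs, again with 11 of 12 above (log2 1.55 ± 0.19 aged and 1.59 ± 0.18 young, edgeR adjusted p = 1.50e-08 and 7.84e-10).

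Of the mevalonate enzymes, the kinase Mvk had 3.71, 40.5 and 78.4 normalised CPM in young Paneth samples, against 9.03, 18.6 and 32.5 in young ISCs, and the decarboxylase Mvd had 8.23, 44.5 and 80.0, against 4.67, 23.8 and 43.0. Groups overlapped for both, the Paneth values being widely spread. Mvk was called in young mice alone (log2 0.50 ± 0.28 aged and 1.02 ± 0.26 young, edgeR adjusted p = 0.176 and 0.00255). Mvd rose at both ages (0.85 ± 0.20 and 0.88 ± 0.29, edgeR adjusted p = 0.00097 and 0.0162). Insig2 had 4.69, 20.7 and 45.0 in young Paneth samples, against 5.11, 11.97 and 22.6 in young ISCs, with 5 of 12 above (log2 0.02 aged and 0.88 young, edgeR adjusted p = 0.962 and 0.0209). Nsdhl was the one member that fell, to 3.35, 15.4 and 37.5 in young Paneth samples, against 19.3, 27.9 and 39.0 in young ISCs. In 9 of 12 it lay below the lowest ISC sample. Its log2 fold change was -0.01 in aged and -0.82 ± 0.26 in young mice (edgeR adjusted p = 0.0157 young).

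In aged mice Fdps (log2 0.85) and Nr1h3 (0.93) also rose in Paneth cells (edgeR adjusted p = 2.55e-05 and 0.000117), and in young mice Abcg8 did (0.73, edgeR adjusted p = 0.0215). With the animal as a block 5 members and 2769 of all genes were called in young mice, Mvk, Abcg5 and Abcg8 being lost (log2 0.71, 0.25 and 0.43, edgeR adjusted p = 0.0867, 0.572 and 0.366). These directions hold relative to other genes: TMM factors were 0.277 to 0.644 in Paneth samples and 1.36 to 1.75 in the rest, and with unscaled totals the median of all genes tested moved to -1.61 aged and -1.86 young, which turned the higher members lower. Relative to that shift 22 aged and 21 young members of 29 lay above the median gene, and Npc1l1 in young mice stood at 1.61. Paneth samples differed from ISCs in tuft, immune and enteroendocrine markers too, as given above, and the part of these in the members' values was not tested.

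Set against progenitors, Paneth cells were lower in most synthesis enzymes. Of 29 members, 12 were lower in aged mice (10.7% of all genes) and 13 in young mice (11.5%), with 11 lower at both ages (6.71% of all genes). Soat2 alone was higher, in young mice (16% of all genes), and no member was in aged mice (13.3%). Its log2 fold change was 0.53 aged and 0.61 young (edgeR adjusted p = 0.115 and 0.0106), and it stood at -1.17 in young mice with unscaled totals. These gates share 14 animals, and with the animal as a block 10 members were lower in aged and 11 in young mice and none was higher, Soat2 in young mice standing at 0.46 (edgeR adjusted p = 0.128). Of all genes the block called 1675 in aged and 2594 in young mice, in either direction. The block also ended the lower calls of Dhcr7, Stard4 and Npc1l1 in aged mice (edgeR adjusted p = 0.161, 0.0826 and 0.0799) and of Pmvk and Sc5d in young mice (0.0945 and 0.0699), so Stard4 and Npc1l1 were then not among those lower at both ages. Synthesis enzymes made up 10 of the 12 and 11 of the 13. Lss had 5.25, 14.2 and 28.6 normalised CPM in young Paneth samples, all below the lowest young progenitor sample (29.0), and a log2 fold change of -1.12 ± 0.31 aged and -1.36 ± 0.24 young (edgeR adjusted p = 0.00568 and 2.33e-05). Cyp51 had 14.0, 28.6 and 50.3 in young Paneth samples, with 10 of 12 below the lowest progenitor sample, and in aged mice all 12 were (log2 -1.31 ± 0.21 aged and -1.27 ± 0.19 young, edgeR adjusted p = 3.85e-06 and 1.68e-06).

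Msmo1 had 5.17, 26.1 and 66.5 in young Paneth samples, against 47.0, 94.95 and 118 in young progenitors (log2 -0.97 ± 0.21 aged and -1.60 ± 0.25 young, edgeR adjusted p = 0.000548 and 1.80e-06). Nsdhl had 3.35, 15.4 and 37.5 in young Paneth samples, against 30.2, 46.2 and 54.3 in young progenitors (log2 -0.69 ± 0.24 aged and -1.42 ± 0.27 young, edgeR adjusted p = 0.0307 and 6.40e-05). Sqle, the squalene epoxidase, had 6.70, 31.5 and 98.4 in young Paneth samples, against 49.1, 92.7 and 142 in young progenitors, and in aged mice no sample overlapped (log2 -1.17 ± 0.21 aged and -1.10 ± 0.28 young, edgeR adjusted p = 3.15e-05 and 0.00299). For Msmo1 and Nsdhl 10 of the 12 young Paneth samples lay below the lowest progenitor sample, and for Sqle 8 did. Acat2, the cytosolic thiolase that joins acetyl-CoA units, had 0.913, 14.2 and 28.2 in young Paneth samples, against 14.3, 27.3 and 42.2 in young progenitors, with 6 of 12 below (log2 -1.29 ± 0.37 aged and -1.06 ± 0.34 young, edgeR adjusted p = 0.00739 and 0.0171).

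Mvk and Mvd were not called between Paneth cells and progenitors. In young mice Mvk stood at log2 0.01 (interval -0.53 to 0.54) and Mvd at -0.00 (-0.59 to 0.58). None of the 6 control genes was called between Paneth cells and progenitors at either age by edgeR, none at an unadjusted p below 0.05, and their largest difference was that of Insig1 in aged mice (-0.83, interval -1.92 to 0.26).

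**Figure D3:**
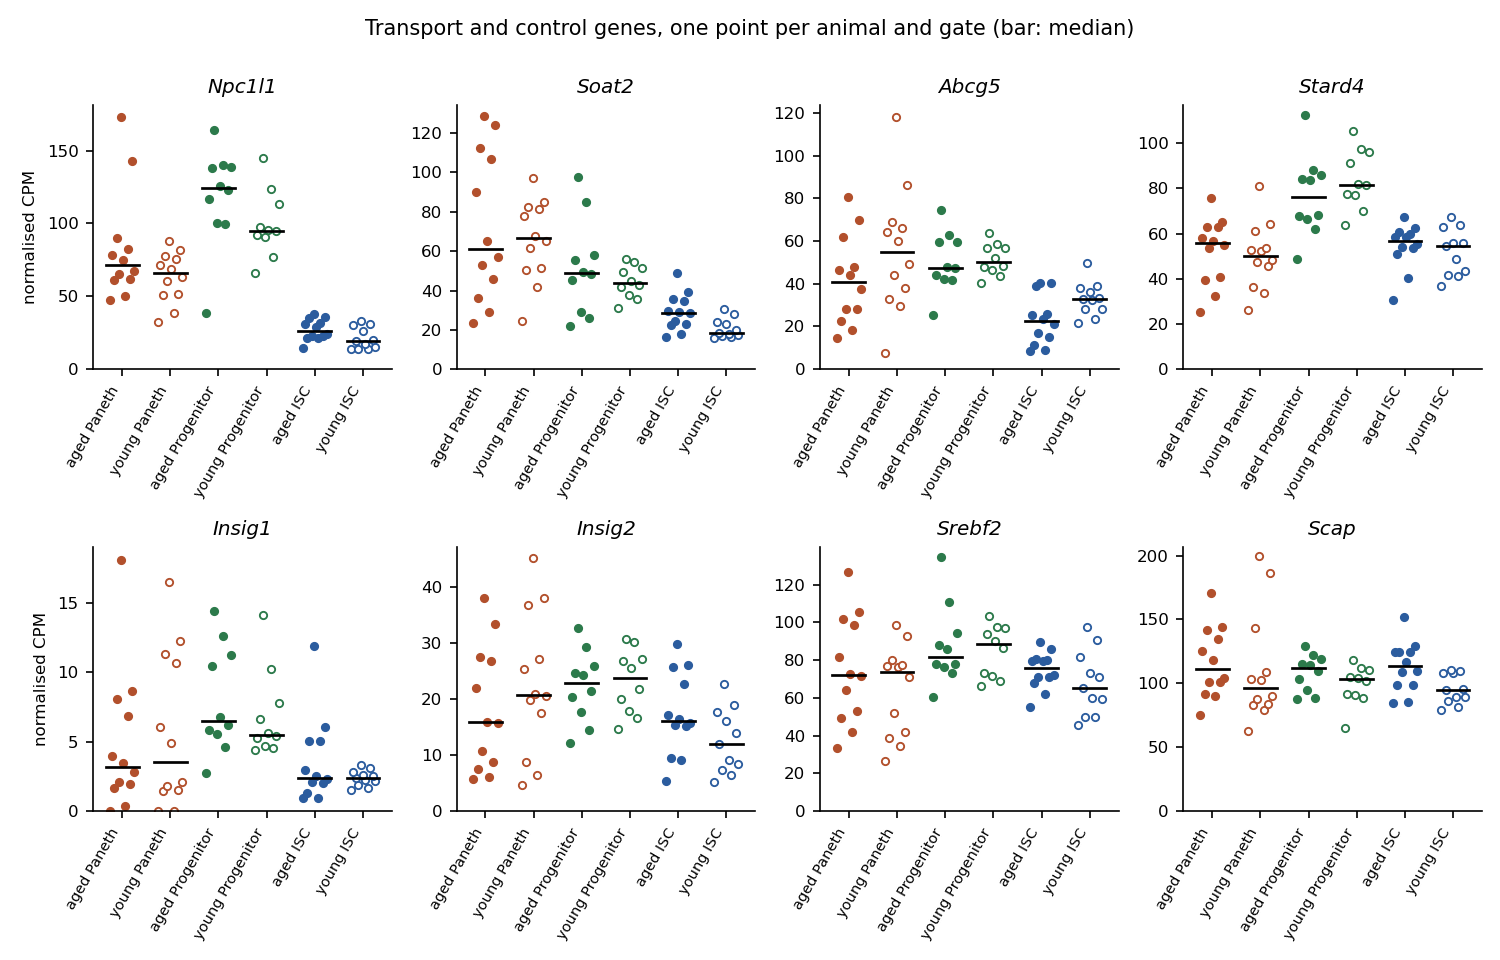
Normalised CPM (linear axis from 0) of 4 transport and 4 control genes in aged and young Paneth, progenitor and ISC samples, 1 point per animal and gate, with the median as a bar. Npc1l1 separates progenitors from ISCs at both ages, Soat2 is highest in Paneth samples (medians 61.1 aged and 66.6 young), and Srebf2 and Scap overlap across all groups.

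Other genes of the wider pathway were called in both directions, to be read against the shares of all genes given above (14% higher and 10.5% lower in aged, 13.1% and 11.2% in young mice). Of 18 tested genes of sterol uptake, esterification, trafficking and processing, 4 were higher and 2 lower in aged progenitors over ISCs, and 6 and 1 in young ones, where Soat1, the second sterol acyltransferase, fell by 2.49 on the log2 scale (edgeR adjusted p = 4.36e-09). Of 13 tested SREBP targets in fatty acid synthesis, 5 were higher and 3 lower at each age. Among them the malic enzyme gene Me1 (log2 3.02 aged and 2.37 young) and the elongase gene Elovl6 (1.60 and 1.83) rose, with edgeR adjusted p of at most 0.000818. Of 12 genes of the isoprenoid branch, which also starts from mevalonate, 1 was lower in aged progenitors, and in young ones Nus1 was higher (0.54) and Rabggtb lower (-0.44, edgeR adjusted p = 0.0416 and 0.0428). The median of these lists lay between 0.00 and 0.06 in aged and between -0.08 and 0.10 in young mice, near that of all genes. Of 7 tested LXR targets and partners, 2 were higher and 2 lower in aged and 3 and 2 in young progenitors.

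The study asked what changes with age, and for cholesterol genes no change passed the test. By edgeR no member was called between aged and young mice in Paneth cells (0 of 28 tested, 0.0686% of all genes called), progenitors (0 of 28, 0.728%) or ISCs (0 of 29, 0.351%). DESeq2 and limma-voom called none either, and at an unadjusted p below 0.05 there were 2 members in Paneth cells, 0 in progenitors and 4 in ISCs. Of all genes, 797 of 11663 in Paneth cells, 1070 of 11812 in progenitors and 1064 of 11958 in ISCs had such a p. The precision differed between gates. In progenitors all 28 intervals (95%) lay within a doubling or halving and 26 of 28 within 1.5-fold, so that larger changes are outside them. In ISCs 26 of 29 lay within 2-fold, and in Paneth cells 15 of 28, so changes of that size are not outside the intervals of the other Paneth members.

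The members with the smallest p are given in full for each gate. In Paneth cells Hmgcs1, which makes the HMG-CoA from which mevalonate is drawn, had 14.1, 24.1 and 50.3 normalised CPM in aged and 5.78, 39.3 and 67.3 in young animals, a log2 difference of -0.71 (interval -1.30 to -0.12, edgeR adjusted p = 0.576). Abcg5 had 14.6, 40.7 and 80.5 in aged and 7.61, 54.7 and 118 in young animals (-0.58, interval -1.14 to -0.02, edgeR adjusted p = 0.709). Msmo1 had 13.4, 43.6 and 76.9 in aged and 5.17, 26.1 and 66.5 in young animals (0.61, interval -0.00 to 1.22, edgeR adjusted p = 0.7305). The groups overlapped widely for all 3. With unscaled totals the median gene moved by 0.24 in this comparison, and these 3 members stood at -0.48, -0.29 and 0.85.

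In progenitors Npc1l1 had 38.3, 124 and 164 normalised CPM in aged and 66.2, 94.9 and 145 in young animals (log2 0.24, interval -0.08 to 0.55, edgeR adjusted p = 0.721). Stard4 had 48.8, 76.2 and 112.5 in aged and 63.7, 81.8 and 105 in young animals (-0.15, interval -0.38 to 0.07, edgeR adjusted p = 0.758). Hmgcs1 had 43.4, 59.4 and 85.1 in aged and 32.97, 65.6 and 117 in young animals (-0.22, interval -0.56 to 0.11, edgeR adjusted p = 0.764). No aged sample of Hmgcs1 lay outside the young range. In the same comparison the proliferation genes Top2a and Ube2c were lower in aged progenitors (log2 -0.60 and -0.52, edgeR adjusted p = 0.00199 and 0.00304) and the enteroendocrine gene Sct higher (0.75, edgeR adjusted p = 0.0227), and their part in the members' values was not tested.

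In ISCs Soat2 had 16.2, 28.8 and 48.8 normalised CPM in aged and 15.6, 18.6 and 30.6 in young animals, with 4 of 12 aged samples above the young range (log2 0.47, interval 0.11 to 0.83, edgeR adjusted p = 0.379). Hmgcs1 had 14.9, 20.4 and 32.1 in aged and 23.8, 26.7 and 37.9 in young animals, with 7 of 12 aged samples below the young range (-0.42, interval -0.76 to -0.09, edgeR adjusted p = 0.386). Scap had 84.4, 114 and 152 in aged and 79.1, 94.9 and 110.3 in young animals, with 6 of 12 aged samples above the young range (0.24, interval 0.05 to 0.44, edgeR adjusted p = 0.386).

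Hmgcs1 was among the 3 members of smallest p in each gate. Its estimate was below 0 in aged over young males and females of each gate, at log2 -0.72 and -0.71 in Paneth cells, -0.18 and -0.26 in progenitors and -0.30 and -0.55 in ISCs. These 6 values are not independent, since 23 of the 36 animals, as named in the labels, gave cells to at least 2 gates, and none of the 3 age effects passed the adjustment.

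**Figure D4:**
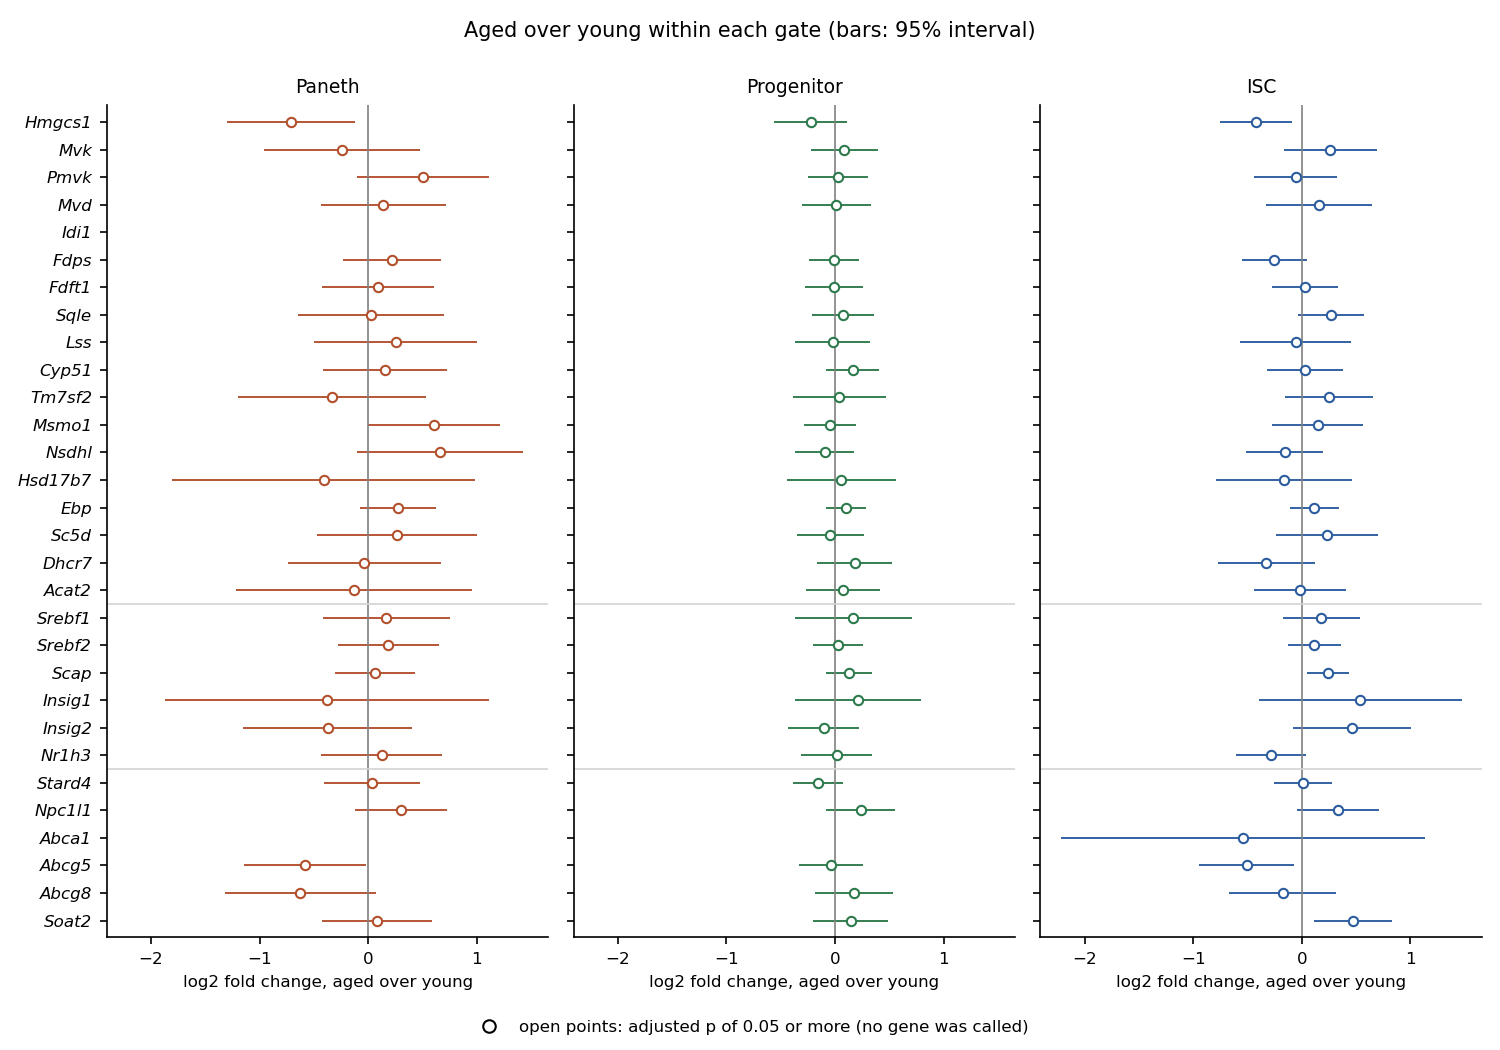
Log2 fold changes of aged over young mice with 95% intervals in Paneth cells, progenitors and ISCs for the 30 members, on a common axis; Idi1 was not tested, nor was Abca1 in Paneth cells and progenitors. Every point is open because no member was called, and the intervals are narrowest in progenitors (median half-width 0.31, against 0.60 in Paneth cells and 0.38 in ISCs).

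Whether the effect of age differed between gates was tested over all 67 samples. No member was called for Paneth cells against progenitors, for Paneth cells against ISCs or for progenitors against ISCs (edgeR, 29 tested each, with 0%, 0.0376% and 0.00753% of all genes called), nor by DESeq2 or limma-voom, and 3, 2 and 0 members had an unadjusted p below 0.05. Nsdhl had the smallest of these (log2 0.82 ± 0.36 for Paneth cells against ISCs, edgeR adjusted p = 0.438). Of all 13287 genes, 966, 1184 and 291 had an unadjusted p below 0.05, in the same order of tests. Nor was any member called by edgeR in the age-by-sex test of a gate (0 of 28, 0 of 28 and 0 of 29, with 0% of all genes called). An unadjusted p below 0.05 was found for 1 member in Paneth cells, 4 in progenitors and 0 in ISCs. For all genes it was found for 621 of 11663, 731 of 11812 and 838 of 11958. Between males and females no member was called (0.0257%, 0.135% and 0.0836% of all genes were in Paneth cells, progenitors and ISCs). At an unadjusted p below 0.05 there were 1, 5 and 1 members, against 540 of 11663, 935 of 11812 and 876 of 11958 genes. Among members Sc5d had the smallest p, at log2 0.54 ± 0.15 in male over female progenitors (edgeR adjusted p = 0.2585) and 1.06 ± 0.37 in Paneth cells (edgeR adjusted p = 0.999). DESeq2 and limma-voom called no member in either test.

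How far synthesis genes varied together between animals is given as a description, without a test. After removing the means of age and sex, the 136 pairs of synthesis genes had a median Pearson r of 0.0959 in 24 Paneth samples, 0.302 in 20 progenitor samples and 0.0435 in 23 ISC samples (median Spearman rho 0.0783, 0.306 and 0.0647), while their r with all other genes had a median of at most 0.00873. In progenitors 86% of pairs were positive, and leaving out any 1 sample kept the median r between 0.25 and 0.343. Cyp51 (median r 0.534), Mvd (0.483), Msmo1 (0.471) and Hmgcs1 (0.46) lay highest with the other synthesis genes. Among the control genes the values were 0.377 for Insig1, 0.305 for Scap, 0.22 for Srebf2, 0.201 for Insig2, 0.0166 for Srebf1 and -0.295 for Nr1h3. Among the 5 transport genes kept by the filter on low counts they were 0.049 for Npc1l1, 0.0442 for Stard4, -0.0642 for Abcg5, -0.141 for Abcg8 and -0.282 for Soat2. The pairs share their libraries and depth, which differ between gates, so the gates are not compared.

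**Figure D5:**
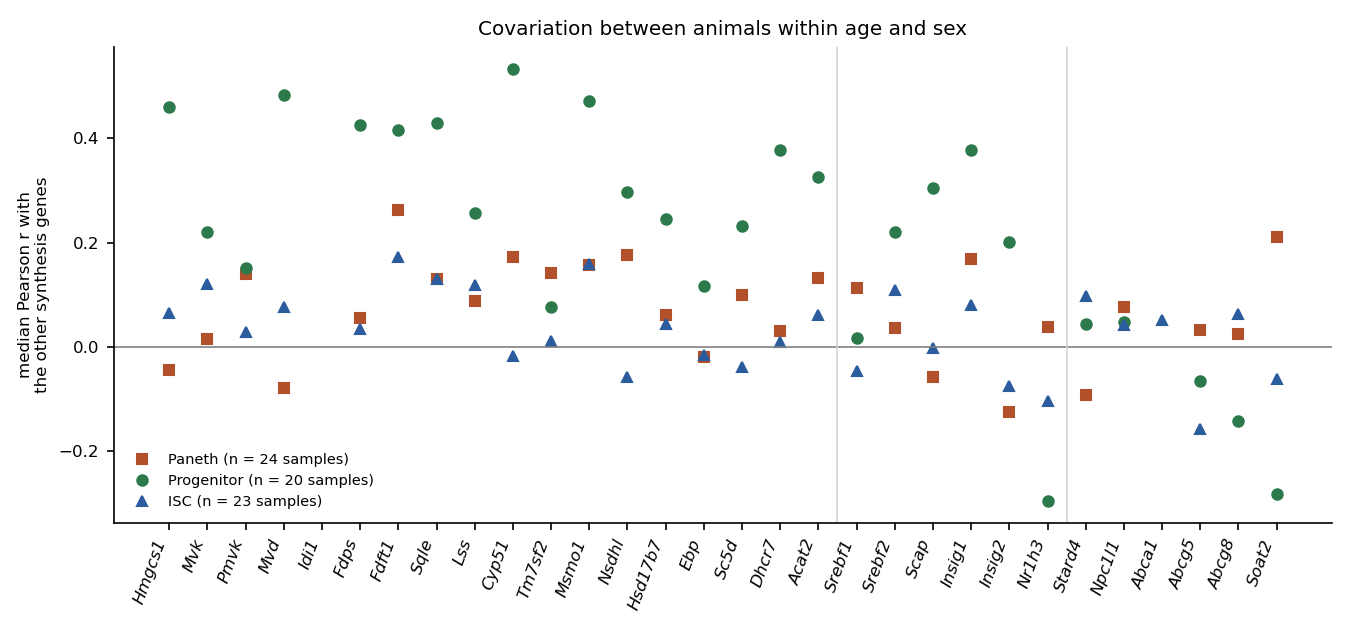
Median Pearson r of each member with the other synthesis genes, after removing age and sex means, in Paneth (squares), progenitor (circles) and ISC (triangles) samples; vertical lines part synthesis, control and transport genes. Most synthesis genes lie above 0.2 in progenitors, and Soat2 and Nr1h3 lie below 0 there.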

How the data were processed

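The authors deposited raw read counts per gene and the same values as CPM for 112 libraries made by SC3-seq, a 3′-end method. Per the submitters' processing notes, cutadapt 3.0, STAR 2.7.9a, HTSeq 0.13.5 and DESeq2 1.30.1 were used with build mm10. Annotation release and strand setting: not given in the sources used here. Rescaling the counts gave back that CPM, so tests used counts. The 69 Paneth libraries were summed per animal, giving 67 samples. Genes were kept by edgeR's filter (minimum count 10), scaled by TMM and tested with edgeR 4.0.16 quasi-likelihood F tests in R 4.3.3, with Benjamini-Hochberg adjustment at 0.05: age, sex and their interaction in a fit per gate, gates in a fit per age, and gate by age over all samples. Intervals are at 95%. DESeq2 1.42.0 and limma-voom 3.58.1 were alternatives. Simulated data were used to try only the age effect in progenitors and the comparison of progenitors with ISCs in young mice. All 30 members are accounted for; values per sample are given for the 3 with the smallest p in each age effect and the 6 largest calls of each gate comparison in young mice, and other genes are named only among the 2 largest calls of a list, some of which are not reported here. Members and lists were chosen with earlier results of these data known. Replicate numbers do not pair samples (median residual correlation -0.00872 to 0.0311); animals do by origin, 8 giving all 3 gates. The labels give 36 animal names, of which a pair of aged males may be 1 animal; they were kept apart, also in the block by animal. Promoters are from RefSeq (GRCm38.p6) and overlapping 3′ exons from GENCODE.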

Additional observations from a re-analysis of the deposited data

Results flagged for a closer look

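Of 60 groups of at most 10 samples (30 genes in aged and in young progenitors), 5 held a sample set apart from the other 9; chance sets apart about 1 group in 20. In aged progenitors, male replicate 5 was the highest for Hmgcs1 (85.14 normalised CPM, next 63.92) and for Idi1 (1.644, next 0.7658), and female replicate 5 was the lowest for Npc1l1 (38.29, next 99.69). In young progenitors, male replicate 5 was the highest for Fdft1 (80.88, next 54.68) and male replicate 1 for Mvd (85.5, next 53.24). Without male replicate 1 the call of Mvd in young progenitors over ISCs was lost (edgeR adjusted p = 0.0669), while in the same comparison, at both ages, Hmgcs1, Fdft1 and Npc1l1 kept their calls without any 1 sample.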

How the results depend on the processing

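The 0 calls for age, sex and their interactions held under every alternative run. Leaving out each sample in turn gave 15 to 20 members for progenitors over ISCs in aged mice and 14 to 18 in young mice. The ranges were 5 to 8 aged and 7 to 11 young for Paneth cells over ISCs, and 10 to 13 aged and 13 to 15 young for Paneth cells over progenitors. How many of all genes were called in each of these fits is not given here, so the ranges describe members only. Some calls were lost without 1 sample, given here with the highest edgeR adjusted p and the sample left out. For young progenitors over ISCs these were Mvd (0.0669, progenitor male 1), Dhcr7 (0.0964, progenitor female 5), Insig1 (0.0836, progenitor male 5), Insig2 (0.079, ISC male 3) and Abcg5 (0.0674, progenitor female 3), and for aged mice Mvk (0.0522, progenitor male 1), Nsdhl (0.0662, ISC female 2), Nr1h3 (0.111, progenitor male 4) and Soat2 (0.0618, progenitor female 1). For Paneth cells over ISCs they were Insig2 (0.0556, Paneth male 1) and Abcg8 (0.0558, Paneth male 6) in young and Abcg5 (0.105, Paneth female 3) in aged mice. For Paneth cells over progenitors they were Hmgcs1 (0.0552, progenitor male 5) and Pmvk (0.0851, progenitor male 2) in young and Nsdhl (0.0652, progenitor female 3) and Npc1l1 (0.0809, progenitor female 4) in aged mice.

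With the replicate block by animal, 11 members were called for progenitors over ISCs and 5 for Paneth cells over ISCs in young mice, where 1617 and 2769 of all genes were called. The other counts of members stayed within 1.5 times, and the calls it ended are given above. The block by replicate number within sex, which does not pair samples, left the age effects at 0 calls, as did leaving out animals of 26 and 27 months. With only the first technical library of each Paneth animal, which has fewer counts, 5 members were called for Paneth cells over ISCs in young mice, and 5 aged and 7 young for Paneth cells over progenitors. Of all genes 2748, 2102 and 2318 were called, in the same order. Some of these members were not called with the libraries summed. The calls lost over ISCs were Mvk, Mvd, Nsdhl, Insig2, Abcg5 and Abcg8 in young and Abcg5 in aged mice. Over progenitors, Lss, Nsdhl, Acat2, Stard4 and Npc1l1 were lost at both ages (Lss edgeR adjusted p = 0.293 aged and 0.0573 young). Fdps, Msmo1 and Ebp were lost there in aged mice alone, and Hmgcs1, Pmvk and Sc5d in young mice alone. With unscaled totals 13 members at each age were higher in progenitors than in ISCs, where the median of all genes moved to -0.18 aged and -0.16 young. Of all genes 2899 aged and 2932 young were called in either direction. The member calls lost were Mvk, Nsdhl, Nr1h3, Stard4, Abcg8 and Soat2 in aged mice and Mvd, Dhcr7, Insig1, Insig2 and Abcg5 in young mice. With the same totals 26 aged and 25 young members were lower in Paneth cells than in ISCs, and 28 at each age than in progenitors, where the median of all genes fell too (-1.45 aged and -1.72 young). Of all genes 10585 aged and 11044 young were called against ISCs, and 9745 and 10444 against progenitors. Values that turned negative over ISCs were Mvd (-0.76), Fdps (-0.77), Nr1h3 (-0.72), Npc1l1 (-0.091), Abcg5 (-0.94) and Soat2 (-0.27) in aged mice, and Mvk (-0.80), Mvd (-0.92), Insig2 (-0.97), Npc1l1 (-0.25), Abcg5 (-1.18), Abcg8 (-1.11) and Soat2 (-0.21) in young mice; Soat2 over progenitors in young mice stood at -1.17. DESeq2, DESeq2 size factors, limma-voom, TMM without mitochondrial genes, no filter and a minimum count of 30 moved no count by more than 1.5 times. P-values within a gate measure the spread between these animals. Those that compare gates measure the spread between samples, with no term for the animal unless a block or random effect is named. Depth limits Paneth samples most.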
